A study of Xenopus laevis with 9 samples.

Results

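Genes of the corticosteroid axis were followed in tails of Xenopus laevis tadpoles given thyroid hormone. Members were all probe sets whose platform gene symbol, without the homeolog suffix, is crhbp, crh, nr3c1, nr3c2, fkbp5, sgk1, tsc22d3 or hsd11b2. These symbols were chosen with earlier results of these data known, so counts of members called are no test of enrichment. The rule found 8 of the 15491 probe sets tested, for 7 of the 7531 genes named singly on the array: crhbp.S, nr3c1.L, nr3c1.S (2 probe sets), nr3c2.L, sgk1.L, tsc22d3.L and tsc22d3.S. It found none with a single gene for crh, fkbp5 or hsd11b2, which were therefore not analysed here. Another 1 probe set, listed with both homeologs of a member gene, was left out because it has more than 1 gene. Its values are not given. The suffixes .L and .S mark the homeologs that the genome duplication of Xenopus laevis left, whose transcripts can bind each other's probes, so a value may hold both.

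Tails came from stage 54 larvae kept as 2 per 500 ml container at 20 C in FETAX, an amphibian medium. The groups were 20 nM triiodothyronine (T3, the active thyroid hormone) for 48 h, 20 nM T3 for 6 h, and vehicle for 48 h. Each group had 3 Affymetrix arrays, and each array held RNA pooled over 3 tails, so the spread between single larvae is not seen. T3 is the one hormone the labels say was added. Vehicle tails were taken at 48 h alone, so both T3 6 h comparisons mix the time spent in the containers with the hormone. The labels do not tie the pools to separate clutches or exposures, and the spread behind each p-value is that among pools, which may be partly technical.

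In tadpoles, corticotropin-releasing hormone (CRH) from the brain drives the pituitary to release both thyrotropin and corticotropin, and so the thyroid and the interrenal glands, which make corticosteroids. Corticosteroids act through a glucocorticoid receptor and a mineralocorticoid receptor, and together with thyroid hormone they are known to speed metamorphosis, tail resorption included. The axis is read in a target tissue through its receptors, through proteins that bind the hormones, and through genes that glucocorticoids are known to raise.

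Values are log2 of the deposited intensities, taken as scaled to the median of the same array. On that scale 0 is the array median, and a negative value is a probe set dimmer than the median. The files give no detection calls, and a fold change of a dim probe set depends on the authors' background correction. A probe set was called at a Benjamini-Hochberg adjusted p under 0.05 in limma, adjusted over all 15491. A level filter that asks for the array median on 3 of 9 arrays would keep 3 of the 8 members, sgk1.L and both tsc22d3 homeologs, and drop 5, so none was applied. Between arrays of 1 group, Pearson's r over all probe sets was 0.978 to 0.994. T3 48 h array 1 stood apart: it was the lowest of the 3 T3 48 h arrays in 225 of the 308 probe sets called higher at T3 48 h against vehicle (73.1%), against 27.4% of all probe sets. RNA of bulk tails cannot tell fewer cells of a type from less RNA per cell.

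**Figure D1:**
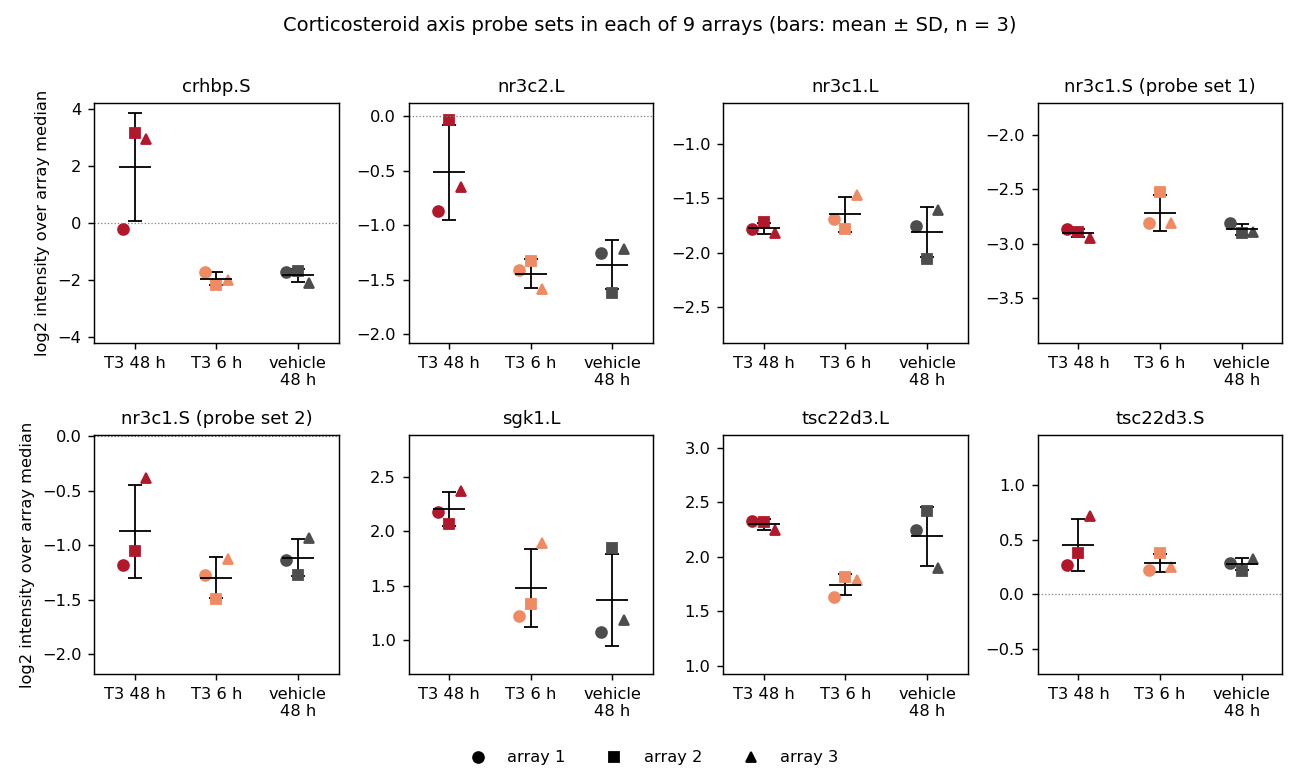
Log2 intensity over the array median (y axis) of each member probe set in the 9 arrays, by group (x axis), with the mean and SD of 3 arrays as bars and the array number as the symbol. The y axis is wider for crhbp.S than for the others, which share 1 span. The T3 48 h arrays of crhbp.S lie at -0.21, 3.16 and 2.94, all above the other 6 arrays.

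After 48 h of T3 the RNA signal of crhbp.S, the gene of the CRH binding protein, rose, and crhbp.S was the 1 member called against vehicle. That call was kept in 9 of 17 alternative fits. The mineralocorticoid receptor nr3c2.L and the glucocorticoid-inducible leucine zipper tsc22d3.L were called higher at T3 48 h than at T3 6 h. The kinase sgk1.L had values above vehicle on all 3 T3 48 h arrays but missed the threshold. The 3 probe sets of the glucocorticoid receptor were called in no comparison, and no member was called at T3 6 h against vehicle.

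crhbp.S encodes the secreted protein that binds CRH and the related urocortins and limits their action on the CRH receptors. In Xenopus tadpole tails it is known as a gene that T3 raises. It lay at -0.21, 3.16 and 2.94 on the T3 48 h arrays, at -1.71, -2.16 and -1.995 on the T3 6 h arrays and at -1.70, -1.69 and -2.09 on the vehicle arrays. All 3 T3 48 h arrays were above the 6 others, which overlapped each other, and 2 of them were the only arrays of the 9 in which crhbp.S passed the array median. The T3 48 h mean was 1.96 ± 1.88, against -1.83 ± 0.23 in vehicle (SD, n = 3 each), a 13.8-fold rise (log2 3.79 ± 0.72 SE, 95% interval 2.19 to 5.39, adjusted p = 0.0237 in limma). Against T3 6 h, at -1.95 ± 0.23, the rise was 15.1-fold (log2 3.92 ± 0.72, adjusted p = 0.0120). In order of level, T3 48 h stood above vehicle and T3 6 h, and vehicle and T3 6 h did not differ beyond their spread (log2 -0.13, 95% interval -1.73 to 1.47). The width of that interval comes mostly from the spread of the T3 48 h arrays, which enter the pooled error: the SE was 0.72 in the fit of all arrays, 0.16 without T3 48 h array 1 and 0.14 from T3 6 h and vehicle arrays alone. For the T3 48 h rises the pooling works the other way. The 2 tighter groups lower the SE, so those intervals and adjusted p understate the spread of the T3 48 h arrays. From T3 48 h and vehicle arrays alone, still pooled, the SE was 0.80 and the call was lost (adjusted p = 0.0644 in limma).

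The size of that rise differed between the pools. Over the vehicle mean, crhbp.S was 3.08-fold higher on T3 48 h array 1, 31.6-fold on array 2 and 27.1-fold on array 3. Without array 1 the log2 rise over vehicle was 4.87 and without array 2 it was 3.19. The call against vehicle was lost without T3 48 h array 2 (adjusted p = 0.0544), T3 48 h array 3 (0.0809) or vehicle array 1, 2 or 3 (0.0908, 0.0798 and 0.0763). With 1 added to each intensity before the log, which damps dim values, the log2 rise was 2.08 (adjusted p = 0.0633).

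At T3 48 h against vehicle 1 of the 8 members was called higher and 0 lower. The share of all probe sets with a call was 3.91%, made up of 1.99% higher and 1.92% lower. Groups that do not overlap, with T3 48 h above vehicle, were found for 3 of the 8 members, crhbp.S, nr3c2.L and sgk1.L, and for 9.02% of all probe sets. With T3 48 h below vehicle they were found for 0 members and 14.2% of all probe sets. The median log2 difference of the members was 0.21, with 7 of 8 positive, and that of all probe sets was -0.02, with 42.5% positive.

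**Figure D2:**
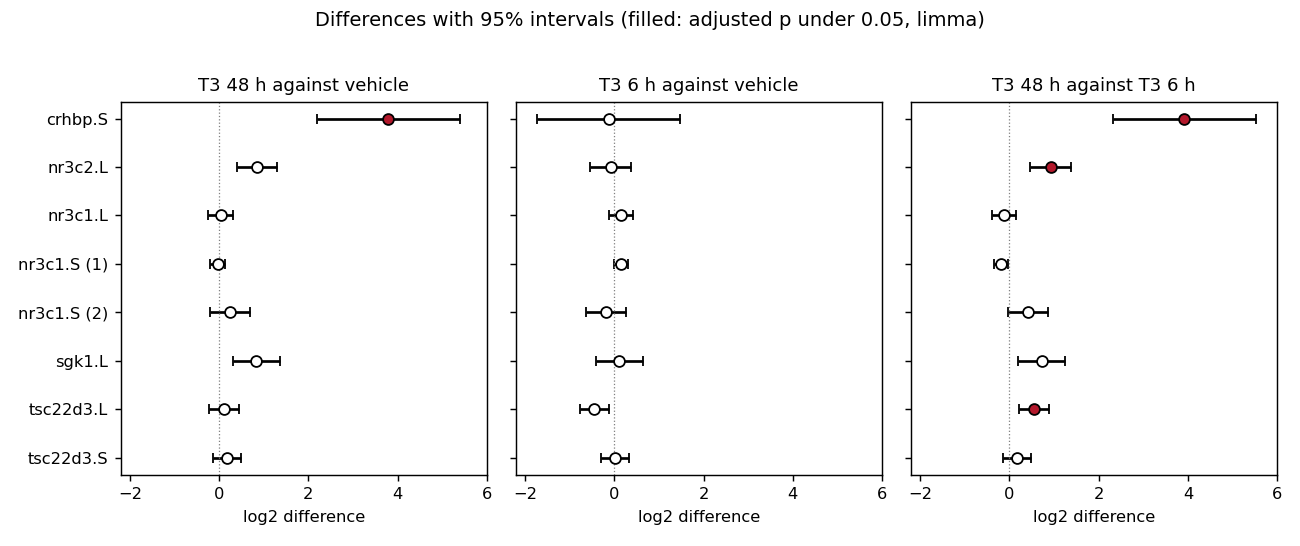
Log2 difference (x axis) of each member probe set (y axis) in the 3 comparisons, with 95% intervals from limma. Filled points had an adjusted p under 0.05. The filled points are crhbp.S against vehicle at 48 h, and crhbp.S, nr3c2.L and tsc22d3.L for T3 48 h against T3 6 h.

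The receptors gave different values. nr3c2.L, the mineralocorticoid receptor, which in other vertebrates binds both aldosterone and glucocorticoids, lay at -0.87, -0.03 and -0.65 on the T3 48 h arrays. It lay at -1.41, -1.33 and -1.59 on the T3 6 h arrays and at -1.25, -1.62 and -1.22 on the vehicle arrays. It was dimmer than the array median on all 9 arrays, yet each T3 48 h array was above the 6 others. Over T3 6 h it rose 1.90-fold (log2 0.93 ± 0.20 SE, n = 3 each, adjusted p = 0.0228 in limma). Over vehicle the difference was 1.80-fold (log2 0.85 ± 0.20, 95% interval 0.39 to 1.30), with an adjusted p of 0.0519 that missed the threshold. T3 6 h and vehicle differed by log2 -0.08 (95% interval -0.54 to 0.38).

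The nr3c2.L values moved with single arrays. Over vehicle, 1 of the 9 fits that leave out an array gave a call, that without T3 48 h array 1 (log2 1.02, adjusted p = 0.0132). The other 8 had adjusted p of 0.0676 to 0.159, and the smallest difference, log2 0.61, came without T3 48 h array 2 (adjusted p = 0.0821). The call over T3 6 h was lost without T3 6 h array 1 (adjusted p = 0.0682), T3 6 h array 3 (0.0860) or T3 48 h array 3 (0.0501). With 1 added to each intensity the difference over vehicle was log2 0.30, on a scale that compresses values below the median.

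nr3c1 encodes the glucocorticoid receptor, a ligand-activated transcription factor found in most vertebrate cells. Its nr3c1.L probe set lay at -1.78, -1.72 and -1.82 at T3 48 h, at -1.69, -1.79 and -1.47 at T3 6 h and at -1.76, -2.06 and -1.61 in vehicle, and all 3 groups overlapped. The 95% interval for T3 48 h over vehicle was log2 -0.24 to 0.30, so a 2-fold change of this signal was outside it. All 3 nr3c1 probe sets were dimmer than the array median on all 9 arrays. With no detection calls, such an interval may describe background, and it does not exclude a 2-fold change of the transcript. The 2 probe sets of nr3c1.S are given apart. On the first, the values were between -2.94 and -2.87 at T3 48 h, between -2.81 and -2.53 at T3 6 h and between -2.90 and -2.81 in vehicle. T3 48 h lay below T3 6 h there without overlap, at log2 -0.19 ± 0.07 (adjusted p = 0.149). On the second, T3 48 h arrays were at -1.18, -1.05 and -0.39, against -1.13, -1.28 and -0.94 in vehicle, a difference of log2 0.24 ± 0.20 that rests on array 3. Over T3 6 h, at -1.28, -1.49 and -1.12, it was log2 0.42 ± 0.20 (adjusted p = 0.220).

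The remaining members are known as genes that corticosteroids raise. sgk1.L encodes a serine/threonine kinase that in mammals is raised by both corticosteroid receptors and increases sodium uptake through the epithelial sodium channel. It lay at 2.18, 2.07 and 2.38 on the T3 48 h arrays, at 1.23, 1.33 and 1.89 on the T3 6 h arrays and at 1.07, 1.85 and 1.18 on the vehicle arrays. The T3 48 h arrays had the 3 highest values of the 9, with 1 array of each other group close behind. The mean was 2.21 ± 0.16 at T3 48 h, against 1.37 ± 0.42 in vehicle (SD, n = 3 each), 1.79-fold higher (log2 0.84 ± 0.24 SE, 95% interval 0.31 to 1.36). Its adjusted p was 0.0784 over all probe sets and 0.0437 among the 8123 that pass the level filter, where 11.0% of probe sets were called against vehicle. Over T3 6 h, at 1.48 ± 0.36, the difference was log2 0.72 ± 0.24 (adjusted p = 0.0925, and 0.0514 among filtered probe sets, of which 19.4% were called). T3 6 h and vehicle overlapped, at log2 0.11 (95% interval -0.41 to 0.64). T3 48 h array 1 was not the lowest of its group for sgk1.L, unlike for crhbp.S and nr3c2.L.

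tsc22d3 encodes the glucocorticoid-induced leucine zipper GILZ, which in mammals is among the most direct targets of the glucocorticoid receptor. The tsc22d3.L homeolog lay at 2.33, 2.32 and 2.24 at T3 48 h, at 1.63, 1.81 and 1.79 at T3 6 h and at 2.24, 2.42 and 1.89 in vehicle. T3 6 h was the low group: all of its arrays were below the 6 others, whereas T3 48 h and vehicle overlapped. T3 48 h stood 1.47-fold above T3 6 h (log2 0.55 ± 0.15 SE, n = 3 each, adjusted p = 0.0467 in limma). T3 6 h was 1.36-fold below vehicle (log2 -0.44 ± 0.15, 95% interval -0.77 to -0.12), at an unadjusted p of 0.0131 and an adjusted p of 0.318, so this fall was not called. T3 48 h and vehicle differed by log2 0.11 (95% interval -0.22 to 0.44). The call over T3 6 h was lost in 7 of the 9 fits that leave out 1 array, those without vehicle array 1 or any of the T3 6 h or T3 48 h arrays, at adjusted p up to 0.152. The difference in the 9 fits was log2 0.50 to 0.59.

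The homeolog tsc22d3.S was flatter, at 0.26, 0.37 and 0.72 at T3 48 h, at 0.23, 0.38 and 0.25 at T3 6 h and at 0.28, 0.22 and 0.33 in vehicle. All groups overlapped. Its T3 6 h difference from vehicle was log2 0.01 (95% interval -0.30 to 0.32) and its T3 48 h difference was log2 0.18 (95% interval -0.13 to 0.49). Whether the homeologs differ in response was not tested.

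For T3 6 h against vehicle, 0 of 8 members were called. Of all probe sets limma called 0.0129%, which is 2 probe sets, 0.00646% higher and 0.00646% lower, and 1737 had an unadjusted p under 0.05. Members with an unadjusted p under 0.05 numbered 1, tsc22d3.L, against 11.2% of all probe sets. Groups did not overlap for 0 members with T3 6 h higher and 1 with T3 6 h lower, against 11.0% and 7.21% of all probe sets. For T3 48 h against T3 6 h, where 8.54% of all probe sets were called, 3 of 8 members were called higher, against 3.46% of all probe sets, and 0 lower, against 5.08%. Groups did not overlap for 4 members with T3 48 h higher and 1 with T3 48 h lower, against 9.41% and 28.2% of all probe sets. This comparison and that against vehicle share the T3 48 h arrays. As the members were chosen with earlier results of these data known, the shares are given for scale only.

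Genes with the most similar pattern over the 9 arrays were sought among 568 probe sets of a single gene that pass the array median in a group and have an SD of at least 0.5. For crhbp.S these were cpa6.L, a carboxypeptidase (Pearson r = 0.993), thibz.L, the leucine zipper factor gene known for its answer to thyroid hormone (r = 0.982), and atg16l1.L, an autophagy protein (r = 0.970). In these genes r describes mainly the gap between the T3 48 h arrays and the other 6, and it is given with no test. Over the vehicle mean, cpa6.L was 2.59-fold higher on T3 48 h array 1, 8.14-fold on array 2 and 7.69-fold on array 3. thibz.L was 6.16-fold, 43.7-fold and 20.8-fold higher on those arrays. Array 1 was the lowest of the T3 48 h arrays in both, an order that choosing them by r with crhbp.S over the same arrays favours, so it adds no support.

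For nr3c2.L the nearest were mapkbp1.L (r = 0.968), which binds kinases of the JNK pathway, mmp14.L (r = 0.961), a membrane collagenase, and timp2.S (r = 0.954), an inhibitor of metalloproteinases. These were picked for following nr3c2.L over the same arrays, so their shared order of arrays is no separate result. For tsc22d3.L they were cdh11.S (r = 0.912), a cadherin of mesenchymal cells, hes4.S (r = 0.907), a transcriptional repressor, and gal3st4.5.S (r = 0.867). Having been picked in the same way, these too had low values at T3 6 h: cdh11.S averaged 1.06 at T3 6 h, against 1.89 in vehicle, and 2.39 at T3 48 h, and hes4.S averaged 1.42 at T3 6 h, against 1.94 in vehicle.

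**Figure D3:**
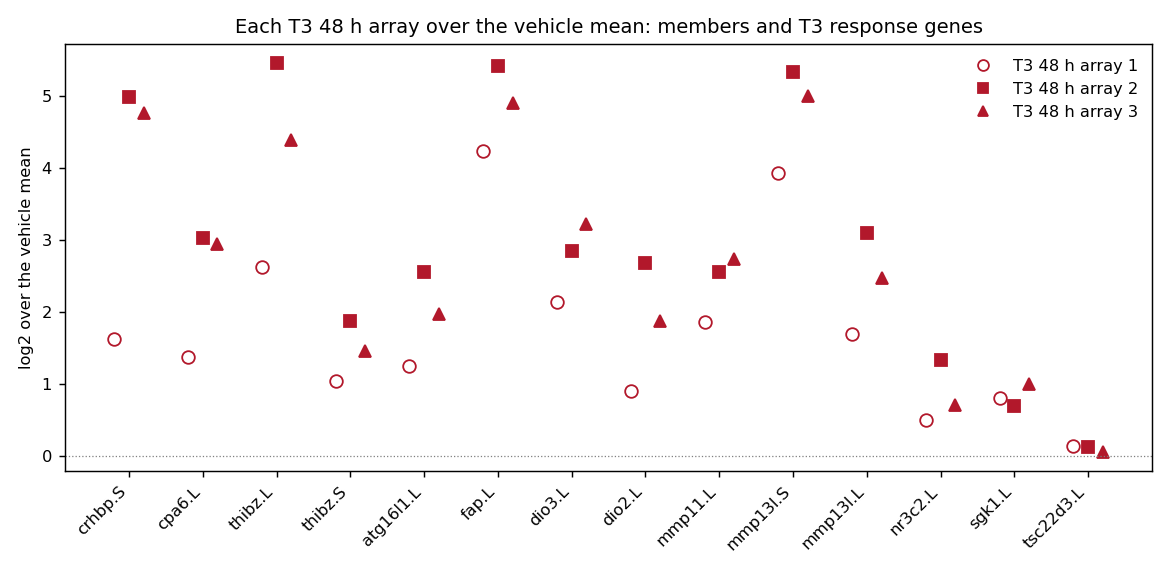
Log2 intensity of each T3 48 h array over the vehicle mean (y axis) for crhbp.S, nr3c2.L, sgk1.L and tsc22d3.L beside genes of like pattern and T3 response genes (x axis). Open circles are array 1, squares array 2 and triangles array 3. Array 1 is lowest for crhbp.S, at 1.62 against 4.98 and 4.76, and for every T3 response gene drawn, but not for sgk1.L or tsc22d3.L. The T3 response genes drawn are those called against vehicle.

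Known T3 response genes were set beside the members. The list was chosen with earlier results of these data known, so it is no independent check of the exposure. Of 13 probe sets, 8 were called higher at T3 48 h against vehicle and 0 lower, and 0 were called at T3 6 h. The shares over all probe sets at T3 48 h were 1.99% higher and 1.92% lower. At T3 48 h, differences from vehicle over the 13 ran from log2 -0.03 to 4.85, with 11 positive. At T3 6 h, where limma called 0.0129% of all probe sets, 12 of the 13 were positive, with a median of log2 0.20. Over all probe sets 61.3% were positive at T3 6 h, with a median of log2 0.04. The called probe sets included those of the membrane serine protease fap.L (log2 4.85 ± 0.27 SE), the inactivating deiodinase dio3.L (2.73 ± 0.28) and thibz.L (4.15 ± 0.54). All 8 were lowest on array 1 among the T3 48 h arrays, as were 73.1% of all probe sets called higher.

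Other genes of the axis were read from 6 lists, shown in the plot of list members by comparison. The lists too were chosen with earlier results of these data known, so their counts of calls are no test of enrichment. For CRH ligands, CRH receptors and the melanocortin system, 4 probe sets of 3 genes were found, pomc.L and pomc.S, which encode the precursor of corticotropin, the CRH receptor crhr2.S and the hormone-processing protease pcsk2.L. None was called in any of the 3 comparisons. They lay between -3.24 and -2.05 in group means at T3 48 h, far below the array median, and their T3 48 h differences from vehicle were between -0.20 and 0.06.

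In corticosteroid synthesis, carriage and metabolism, 1 of 13 probe sets rose at T3 48 h against vehicle and 0 fell, with a list median of 0.07. The shares over all probe sets were 1.99% higher and 1.92% lower. The 1 that rose was por.L, the reductase that supplies electrons to steroid-making and other cytochrome P450 enzymes. It lay at 3.36, 3.53 and 3.54 at T3 48 h, against 2.62, 2.66 and 2.93 in vehicle (log2 0.74 ± 0.12 SE, n = 3 each, adjusted p = 0.0130 in limma). T3 6 h arrays lay between the groups, at 3.09, 3.13 and 3.15. A second por.L probe set also had groups that do not overlap (log2 0.46, adjusted p = 0.129). The further members named by level were fdx1.L (-0.04), stard3.S (0.49) and abcb1.L (0.71), none of them called. The por.L call was lost without vehicle array 1 or 2 or T3 48 h array 3, at adjusted p up to 0.0671. The fit that leaves out T3 48 h array 1 called more of everything, 901 of all 15491 probe sets higher than vehicle and 854 lower, and 2 of this list higher.

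Of 19 probe sets of receptor chaperones, the heat shock proteins and partners that hold steroid receptors ready for ligand, 0 were called in any comparison. The list median at T3 48 h against vehicle was -0.10. The values of the brightest members were -0.13 for hsp90ab1.S, -0.01 for hspa1l.S, -0.29 for hspa8.L and -0.22 for dnaja2.L. Without T3 48 h array 1, 2 chaperones were called higher and 2 lower than vehicle, in that fit with 901 higher and 854 lower among all 15491.

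Genes known in mammals to rise with glucocorticoid gave 29 probe sets, of which 3 rose at T3 48 h against vehicle and 0 fell, with a list median of 0.10. The shares over all probe sets were 1.99% higher and 1.92% lower. Without T3 48 h array 1, 3 of the 29 were called higher and 1 lower, beside 901 and 854 of all 15491. The gluconeogenic enzyme pck1.L lay at 4.49, 2.97 and 3.91 at T3 48 h, against 1.69, 2.55 and 2.04 in vehicle (log2 1.70 ± 0.37, adjusted p = 0.0394). The crosslinking enzyme tgm2.S rose by log2 2.37 ± 0.20 (adjusted p = 0.000921), to 3.56 ± 0.30, against 1.19 ± 0.29 in vehicle. The transcription factor cebpd.S rose by 0.65 ± 0.14 (adjusted p = 0.0402). It lay at 6.08, 6.01 and 5.78 at T3 48 h, at 6.16, 5.91 and 6.26 at T3 6 h and at 5.53, 5.34 and 5.07 in vehicle, so the groups given T3 overlapped and vehicle was below both. The T3 6 h difference from vehicle was log2 0.79 (adjusted p = 0.124). The calls of pck1.L and cebpd.S were each kept in 7 of 18 alternative fits and that of tgm2.S in 18 of 18. That of pck1.L was lost without any of the vehicle arrays, T3 6 h array 3 or T3 48 h array 3, at adjusted p up to 0.143. That of cebpd.S was lost without any of the vehicle arrays, T3 6 h array 1 or 3, or T3 48 h array 2 or 3, at adjusted p up to 0.113. The homeolog tgm2.L was at log2 0.01.

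Between T3 48 h and T3 6 h, 3 of those 29 probe sets were higher and 1 lower, beside 3.46% higher and 5.08% lower over all probe sets. pck1.L and tgm2.S were again higher, at log2 1.95 and 2.20. glul.L, glutamine synthetase, lay at 5.56, 6.23 and 6.02 at T3 48 h, against 4.59, 5.39 and 4.77 at T3 6 h (log2 1.01 ± 0.23, adjusted p = 0.0248). Like tsc22d3.L, it was lowest at T3 6 h, where it lay below vehicle without overlap, at log2 -0.83 (adjusted p = 0.252). Its call was lost without T3 6 h array 1 or 3 or T3 48 h array 2 or 3, at adjusted p up to 0.0886. The metallothionein mt4.L fell by log2 1.59 on 1 probe set (adjusted p = 0.00959), and its other 2 probe sets were at -0.66 and -0.87 without a call. Whether glucocorticoid raises mt4 itself in mammals was not checked here. The brightest other members, glul.S, pdk4.S, txnip.L and pdk4.L, lay between -0.40 and -0.02 at T3 48 h against vehicle, none of them called.

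In the SGK pathway, 0 of 15 probe sets were called in any comparison, with a list median of 0.12 at T3 48 h against vehicle. The sodium channel subunits scnn1a.L, scnn1b.L, scnn1b.S, scnn1g.L and scnn1g.S, which sgk1 acts on in mammals, lay between -0.37 and 0.23, chosen for naming after their values were seen. The bright probe sets of ndrg2.S, a gene whose protein is a substrate of sgk1 in mammals, were at 0.23 and 0.73, and atp1b1.S was at 0.13. Without T3 48 h array 1, 2 probe sets of this list were called higher than vehicle, beside 901 of all 15491. The TSC22 family gave 1 probe set outside the members, tsc22d1.L, a leucine zipper relative of tsc22d3. It rose, at 2.90, 3.39 and 3.23 at T3 48 h, against 2.11, 2.42 and 2.43 in vehicle (log2 0.85 ± 0.16, adjusted p = 0.0211). This call was lost without any of the vehicle arrays or T3 48 h array 2 or 3, at adjusted p up to 0.0841.

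**Figure D4:**
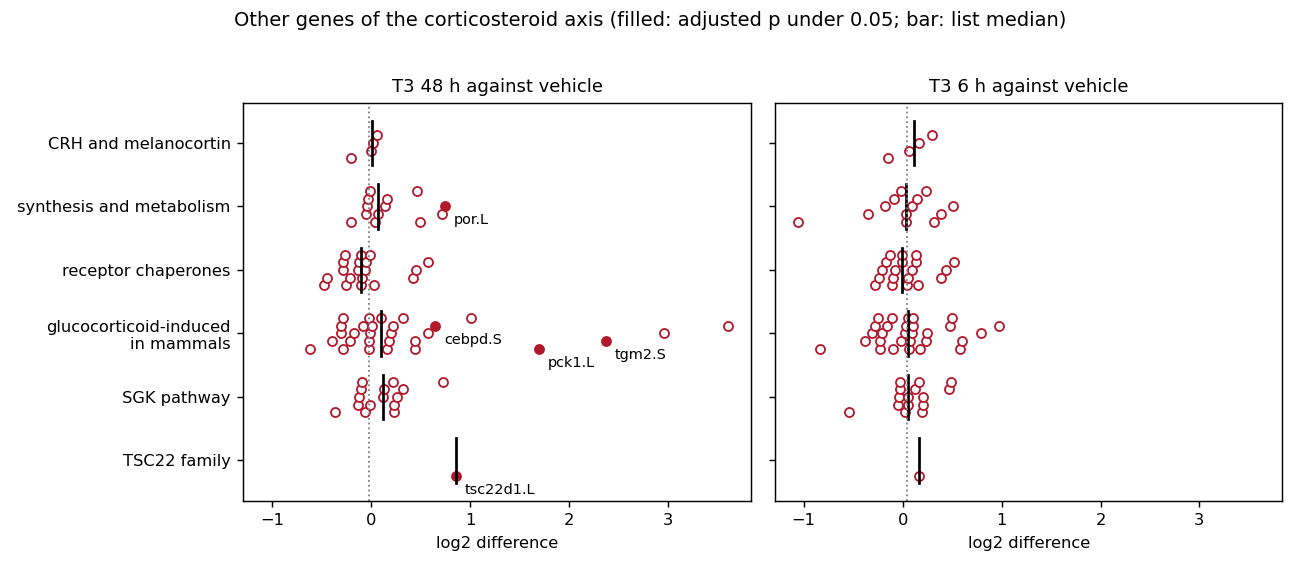
Log2 difference (x axis) of each probe set of the 6 lists (y axis) for T3 48 h against vehicle (left) and T3 6 h against vehicle (right). Filled points were called, black bars are list medians, and the dotted line is the median of all probe sets. At 48 h the filled points are por.L, cebpd.S, pck1.L, tgm2.S and tsc22d1.L, and at 6 h there are none.

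Markers of the tissue and of other cells were read for all arrays, and muscle markers, which define most of a tail, were bright. Muscle markers had 0 of 12 probe sets called in the 3 comparisons, and their summed intensity was 3961 to 4639 at T3 48 h, 4359 to 4551 at T3 6 h and 4119 to 4346 in vehicle, in multiples of the array median. Pituitary markers had 0 of 11 called, and 10 of them lay below the array median on all 9 arrays, pomc included. The interrenal markers, 2 probe sets of cyp17a1.L, lay below it on all 9 arrays. At T3 48 h against vehicle, neural markers had 1 of 15 higher, gap43.S, against 1.99% of all probe sets, and 0 lower. Most of that list went the other way, with a median of log2 -0.25 and 5 of 15 positive. At T3 48 h against T3 6 h, gap43.S was called higher (log2 1.99) and syt1.L lower (log2 -1.07). The syt1.L call was kept in 4 of 18 alternative fits and that of gap43.S in 18 of 18. Leukocyte markers had 0 of 9 called, with sums of 57.8 to 108 at T3 48 h, against 54.5 to 73.0 in vehicle.

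Beside the T3 48 h rise of crhbp.S, epidermal markers had 2 of 15 probe sets lower than vehicle, and their summed intensity was 117 to 177, against 176 to 266 in vehicle. Notochord and cartilage markers had 1 of 6 lower, shh.L, and sums of 7.47 to 21.0, against 23.7 to 37.6 in vehicle. The shh.L call was kept in 8 of 17 alternative fits. Over all probe sets 1.92% were called lower than vehicle. Of the notochord and cartilage markers, 5 of 6 were called lower at T3 48 h than at T3 6 h, against 5.08% of all probe sets. These calls were kept in 7 of 18 alternative fits for col9a1-b and in 10 of 18 for each of col2a1.S and col9a1.L. They were kept in 16 of 17 for shh.L and 18 of 18 for cnmd.L. In that comparison crhbp.S, nr3c2.L and tsc22d3.L were higher. Beside the low T3 6 h values of tsc22d3.L, the erythroid markers, 0 of 10 called, had sums of 431 to 774 at T3 6 h, against 307 to 374 in vehicle. At T3 48 h, where tsc22d3.L overlapped vehicle, they were 339 to 597. The part of these cell types in the members' values was not tested.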

How the data were processed

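RNA from 9 arrays was analysed. The authors deposited linear intensities, made with GCRMA per the submitters' processing notes, with no version in the sources used. The median of the 9 column medians, controls included, is 1, from which a scaling of each array to its median was taken. Of 15611 probe sets, 120 controls were left out. Gene symbols came from the platform annotation (9304 probe sets with 1 gene, 195 with several, 5992 with none). By gene ID, 9227 matched a RefSeq table of Xenopus_laevis_v10.1, used for names only.

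Log2 intensities of all 9 arrays were fitted in R 4.3.3 by limma 3.58.1 on the group alone, eBayes with an intensity trend and two-sided tests, over 15491 probe sets with no level filter, because 5 of 8 members are dim. Data of this size for T3 48 h against vehicle were simulated 10 times, with 200 random probe sets shifted equally on all 3 T3 48 h arrays. Of changes of log2 1, 79.9% were recovered, and of log2 2, 96.6%, with 4.41% false calls. The simulated noise was independent between probe sets and held no array that stood apart, as T3 48 h array 1 did. These rates are averages over probe sets, so they do not give the recovery for dim or variable members such as crhbp.S.

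Members and lists were chosen with earlier results of these data known. Every member probe set with a single gene was named, with the called probe sets of each list and up to 4 further by level. For each called member, the 3 probe sets with the highest Pearson r were named. Alternatives were quantile normalization, centring, a level filter (log2 0 in 3 arrays), log2(value + 1), a floor at log2 -2, no trend, array weights, 2-group fits, a replicate block and leaving out each array. Counts of list members without T3 48 h array 1 were added after seeing the data. Array number limits the precision.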

Additional observations from a re-analysis of the deposited data

Results flagged for a closer look

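T3 48 h and T3 6 h arrays differed for 3 members, by the test of T3 48 h against T3 6 h. The vehicle means cancel out of this difference, and no vehicle tails were taken at 6 h. The difference was log2 3.92 for crhbp.S (adjusted p = 0.0120 in limma), log2 0.93 for nr3c2.L (0.0228) and log2 0.55 for tsc22d3.L (0.0467). In that order, the calls were kept in 16 of 17, 12 of 17 and 7 of 18 alternative fits. All 3 were lost in the fit of the 2 groups alone. For crhbp.S and nr3c2.L the T3 48 h arrays were the high group. For tsc22d3.L the T3 6 h arrays were the low group. The hormone time and the time in the container cannot be told apart in this comparison. No group was large enough to look for single outlying arrays by the spacing of its values.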

How the results depend on the processing

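Over all probe sets, T3 6 h against vehicle gave 2 calls, 18 with the level filter, 6 with no trend, 101 with array weights, 9 from the 2 groups alone, 0 with the replicate block and 0 to 13 without 1 array. T3 48 h against vehicle gave 605, 246 with the floor, 935 with array weights, 297 from the 2 groups alone, 361 with the block and 89 to 1755 without 1 array. T3 48 h against T3 6 h gave 1323, 1998 with array weights, 579 from the 2 groups alone and 543 to 2019 without 1 array. Against vehicle at T3 48 h leaving out vehicle array 1 gave 89 and leaving out T3 48 h array 1 gave 1755. Of the members, 0 were called at T3 6 h in all 18 alternatives. Against vehicle at T3 48 h, the 1 call became 2 under centring and array weights, 0 with log2(value + 1), the floor or the 2 groups alone, and 0 to 2 without 1 array. With the filter the count stayed at 1, but that call was sgk1.L, and crhbp.S has no value there. Against T3 6 h, the 3 calls became 1 with the filter (2 of the 3 have no value there), 1 with the floor, 0 from the 2 groups alone and 1 to 3 without 1 array. Arrays shared only a replicate number: deviations of same-numbered arrays correlated at r = -0.133 to 0.103, and not every array correlated best with its own number. With that number as a block, tsc22d3.L had an adjusted p of 0.0655 against T3 6 h, and the other member calls were kept. Signs of small differences turned for tsc22d3.S at T3 6 h under quantile normalization (-0.000142), centring (-0.0185) and array weights (-0.0159), and without 1 array (-0.0360 to 0.0395). They also turned for nr3c1.L at T3 48 h with array weights (-0.0090) and without 1 array (-0.0926 to 0.13). Without 1 array, sgk1.L at T3 6 h ranged over -0.0906 to 0.35. At T3 48 h against vehicle tsc22d3.L then ranged over -0.0368 to 0.23 and the second nr3c1.S probe set over -0.0013 to 0.40. The cause of these shifts was not tested. For members below the array median, the background correction limits what a fold means.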

Other observations

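Beside the calls, 3 genes known in mammals to rise with glucocorticoid had T3 48 h values that split the arrays another way than crhbp.S, and they were chosen after their values were seen. igfbp1.L, which binds insulin-like growth factors, lay at 3.38, -2.49 and 2.52 on T3 48 h arrays 1, 2 and 3, against -2.36, -2.45 and -2.60 in vehicle. pck1.S lay at 3.57, -1.61 and 1.96, against -1.61, -1.69 and -1.65 in vehicle. errfi1.L, an inhibitor of the epidermal growth factor receptor, lay at 2.29, -0.45 and 1.68, against -0.01, 0.78 and -0.28 in vehicle. All 3 were highest on array 1, on which crhbp.S was lowest, and near the vehicle values or below them on array 2, on which crhbp.S was highest. Array 1 was the highest of the T3 48 h arrays in 48.0% of all probe sets, so that position is common. None of the 3 genes was called, at adjusted p of 0.119, 0.124 and 0.370 in limma. The called homeolog pck1.L had the same order of arrays.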
